A study of Rattus norvegicus with 17 samples.

Results

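The NADPH oxidases and nitric oxide synthases were followed in the colon mucosa of rats prone to colitis: the phagocyte oxidase subunits Ncf1, Ncf4, Cybb and Cyba, the epithelial oxidases Nox1, Duox1 and Duox2, and the nitric oxide synthases Nos2 and Nos3. A probe was taken as a member if it was not a control and its gene name on the array, with an ending of "_predicted" or "_mapped" removed, was one of these 9 names in any case of letters. That gave 8 probes of 41012 non-control probes, 1 for each of 8 of the 9 genes, and no probe was named Ncf4. All 8 were among the 27083 probes bright enough to be tested.

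The animals were female HLA-B27/β2-microglobulin transgenic rats of the inbred Fisher 344 strain, 8 to 10 weeks old when the experiment began. Both human transgenes were carried by every rat of both diets, and no rat without them was analysed here. Of the 17 rats, 8 ate a diet with 120 mmol calcium per kg (high calcium, rats 2, 3, 9, 10, 13, 14, 17 and 18) and 9 ate a diet with 30 mmol per kg (low calcium, rats 1, 4, 5, 6, 7, 8, 11, 15 and 16). RNA of scraped mucosa from each rat was labelled with Cy5 and hybridised to an array of its own against a Cy3-labelled pool made from all groups. Each value is therefore a log2 ratio of a rat to that pool. Such ratios, or their means over several probes, were compared between rats. They do not give the amount of RNA of 1 gene against another. Of the markers listed, 13 of 13 for colon epithelium and 12 of 13 for macrophages and monocytes had a tested probe. For neutrophils these were 8 of 12, and for smooth muscle 5 of 6. Of all 41012 probes 27083 were tested, so these counts do not show which cells the scrapings held. The arrays had a median Cy5 signal of 146.8 to 180.8 against a background of 43.5 to 53.5, with 60.0% to 71.9% of probes well above it.

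The phagocyte NADPH oxidase moves electrons from NADPH to oxygen and so makes superoxide in neutrophils and macrophages. Its membrane core is Cybb (gp91phox, the catalytic chain) with Cyba (p22phox, which stabilises it), and Ncf1 (p47phox) and Ncf4 (p40phox) are cytosolic subunits that join the core in activated cells. Nox1 is a homologue of Cybb made by colon epithelium that also works with Cyba, while Duox1 and Duox2 are dual oxidases that release hydrogen peroxide at epithelial surfaces without it. Nos2 is the inducible nitric oxide synthase of inflamed tissue, and Nos3 is the synthase of endothelium.

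The upstream sequences of Cybb and Ncf1 are shown because these subunits had the smallest unadjusted p of the members and varied together over the rats. Each is the 250 bases before the annotated start site, 5′ to 3′, from the RefSeq promoter table on GRCr8, which held 7 of the 9 members. The Cybb window is chrX:16065066-16065315 on the minus strand, and the Ncf1 window is chr12:28121635-28121884 on the plus strand. Capitals mark matches to GAGGAA, the core of sites for the myeloid factor PU.1, on either strand (the match reads TTCCTC where it lies on the other strand).
Cybb: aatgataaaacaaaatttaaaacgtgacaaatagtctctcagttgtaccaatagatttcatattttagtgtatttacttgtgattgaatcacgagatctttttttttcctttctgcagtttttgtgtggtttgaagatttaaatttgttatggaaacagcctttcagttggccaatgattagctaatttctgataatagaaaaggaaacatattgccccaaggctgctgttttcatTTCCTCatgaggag
Ncf1: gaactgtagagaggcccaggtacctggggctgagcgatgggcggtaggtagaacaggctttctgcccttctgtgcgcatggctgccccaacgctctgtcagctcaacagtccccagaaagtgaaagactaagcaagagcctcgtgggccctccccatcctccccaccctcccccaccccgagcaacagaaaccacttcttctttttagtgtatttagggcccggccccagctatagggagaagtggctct
In windows of 300 bases, which add 50 bases after the start, GAGGAA was present in Cybb (first base at -14, with the start site as 0), Nox1 (-37) and Duox1 (-230). These were 3 of 7 members, and 27.6% of all 33469 promoters of that length held it. A second motif, TTCNNNGAA (N for any base), was searched in the same windows. It was in 0 of 7 members and in 8.87% of all promoters. A match is a run of letters only, and no match says only that the letters were not in the window.

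Of the members, Ncf1 and Cybb had the smallest unadjusted p between diets in limma. Both were lower at high calcium, by 1.31-fold and 1.24-fold, and neither passed the threshold over all probes. The estimates for Cyba, the 3 epithelial oxidases and both nitric oxide synthases lay between -0.06 and 0.09. Over all 27083 probes, 0 (0.0%) passed an adjusted p of 0.05 in limma, and the smallest adjusted p was 0.098. Without adjustment 2381 probes (8.79%) had a p under 0.05, of which 1311 (4.84% of all) were lower at high calcium and 1070 (3.95%) higher. Of the 8 members, 2 reached that level and both were lower. The estimate was below 0 for 6 of 8 members and for 46.1% of all probes, and the median estimate was -0.05 over the members and 0.01 over all probes. The diets overlapped for each of the 8 members, and they were apart for 8 probes of the whole array (0.0295%).

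**Figure D1:**
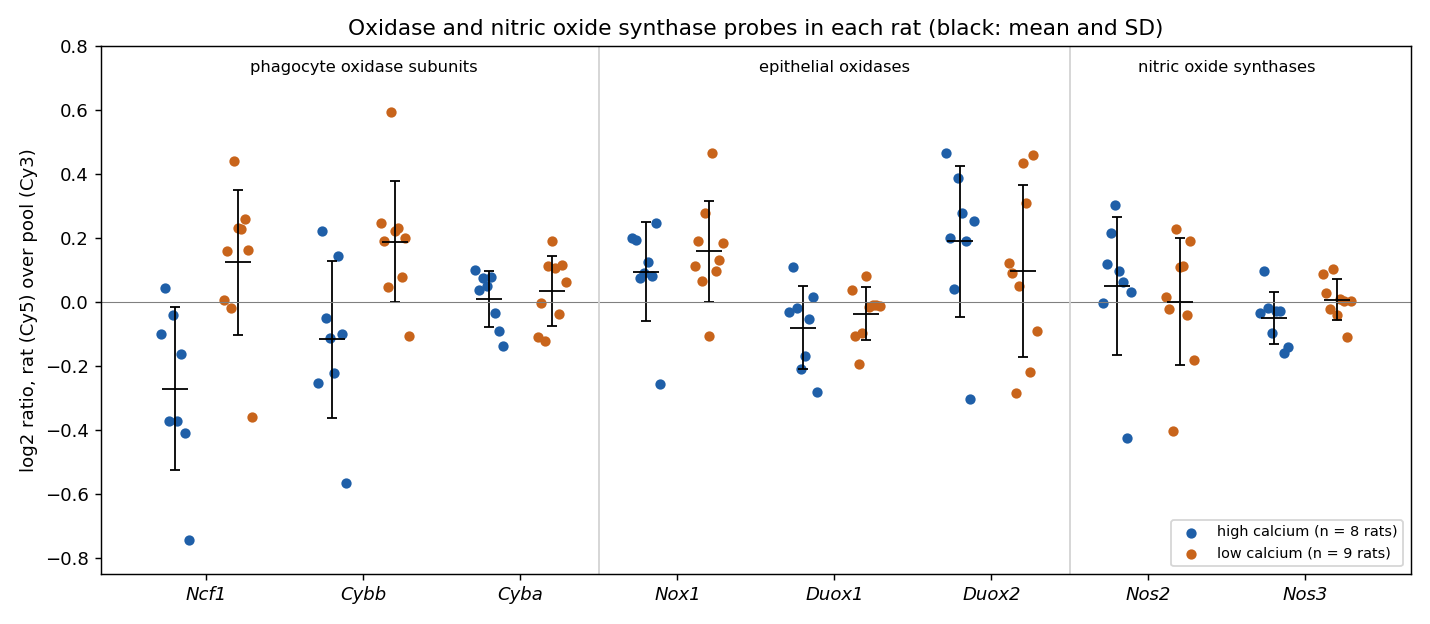
Log2 ratio of each rat to the pool (vertical axis) for the 8 member probes, with 8 high calcium rats in blue and 9 low calcium rats in orange, and black bars for the mean and SD. For Ncf1, 6 low calcium rats lie above every high calcium rat, while the diets overlap over most of their range for the epithelial oxidases.

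Ncf1, the organiser subunit that brings the cytosolic part of the oxidase to the membrane, had its probe at chr12:23449881-23449940 (rn3, as the array files give it). At high calcium the rats ran from -0.75 through a median of -0.27 to 0.04, and at low calcium from -0.36 through 0.16 to 0.44. All 8 high calcium rats were below the low calcium mean, 4 of them below every low calcium rat, and 6 low calcium rats were above every high calcium rat. The means were -0.27 ± 0.25 (SD, n = 8) and 0.12 ± 0.23 (SD, n = 9). The difference was -0.39 ± 0.10 (SE), with a 95% interval of -0.61 to -0.18, an unadjusted p of 0.0010 and an adjusted p of 0.196 in limma. By unadjusted p this was rank 138 of the 27083 probes. The share of all probes for which every high calcium rat lay below the low calcium mean was 1.74%, and Ncf1 was the 1 member among them. No share was taken for the counts of rats beyond every rat of the other diet. The 3 low calcium rats inside the high calcium range were rats 1, 5 and 16, with rat 16 the lowest at -0.36, and the highest of the high calcium rats was rat 3.

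Cybb, the catalytic chain, had its probe at chrX:25571974-25572033 (rn3). Its values were -0.57, -0.11 and 0.22 (lowest, median and highest) at high calcium and -0.11, 0.20 and 0.59 at low calcium. Rat 18 was lowest and rat 6 highest, 4 rats fed high calcium fell short of all 9 fed low calcium, and 7 of 8 were under the low calcium mean. Nos3 also had 7 of 8 under its low calcium mean, with an adjusted p of 0.747 in limma. The share of all probes with such counts was not taken. The difference of Cybb was -0.31 ± 0.09 (SE), with a 95% interval of -0.50 to -0.11, an unadjusted p of 0.0039 and an adjusted p of 0.303 in limma. A second probe on the array, TC551872, carries no member's name but is described there as gp91phox and starts 4290 bases from the Cybb probe. It was picked for that description after the data had been seen. Its difference was -0.44 ± 0.12 (SE; interval -0.69 to -0.19, adjusted p 0.210 in limma), and over the 17 rats it followed the Cybb probe with r = 0.92 and rho = 0.89. The mean of both probes differed by -0.37 between diets.

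For Ncf4, which organises the active complex with Ncf1, the array holds a probe under the older name LOC500904, at chr7:116224446-116224505 (rn3), whose gene ID is that of Ncf4 in the RefSeq table. It stands outside the rule on names, was chosen after values were seen, and enters no member count. All 8 high calcium rats were below its low calcium mean, and 1 was below every low calcium rat. The difference was -0.18 ± 0.08 (SE), with an interval of -0.35 to -0.02 and an adjusted p of 0.516 in limma. Its r over the rats was 0.83 with Ncf1 and 0.77 with Cybb.

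Cyba, the partner of both Cybb and Nox1, had its probe at chr19:52726312-52726371 (rn3), with no saturated spot. Its values were -0.14, 0.04 and 0.10 at high calcium and -0.12, 0.06 and 0.19 at low calcium, so the diets overlapped over most of their range. Even so, 4 low calcium rats lay above every high calcium rat. The difference was -0.02 ± 0.05 (SE), with an interval of -0.13 to 0.08 and an adjusted p of 0.923 in limma, and its sign turned with median centring, with the Cy5 channel alone and with array weights.

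**Figure D2:**
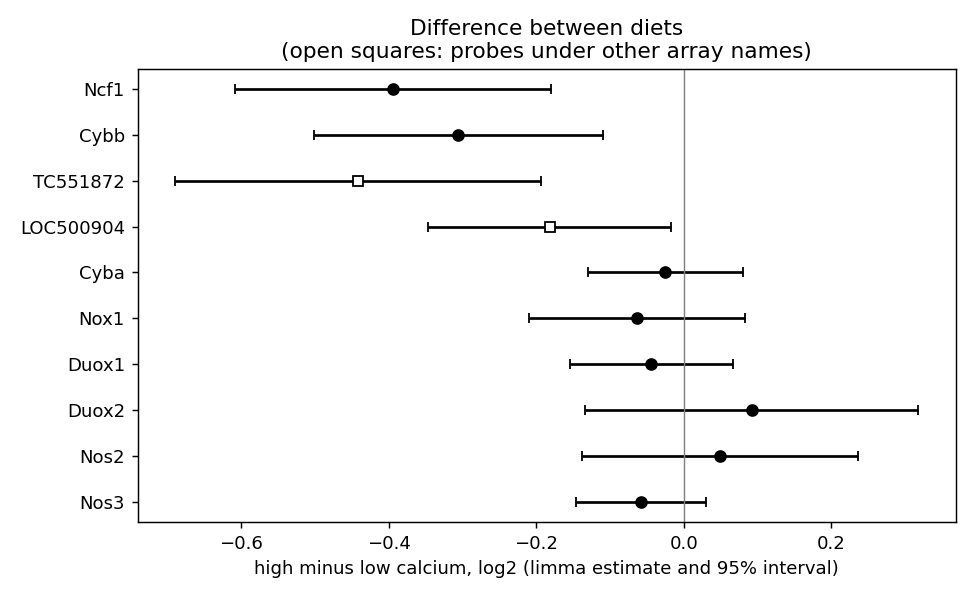
Difference between diets (high minus low calcium, log2, horizontal axis) from limma with its 95% interval for the 8 members (filled circles) and for TC551872 and LOC500904, which carry other names on the array (open squares). The intervals of Ncf1 and Cybb lie below 0, and those of Cyba, Nox1, Duox1, Duox2, Nos2 and Nos3 hold 0, with the signs of Cyba, Nox1, Duox1 and Nos2 turning under some settings.

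For the 3 epithelial oxidases the rats of both diets overlapped over most of their range. Nox1 had values of -0.26, 0.11 and 0.25 at high calcium and -0.11, 0.13 and 0.47 at low calcium. Rat 18 lay far below the other high calcium rats and rat 8 was the highest of all. The difference was -0.06 ± 0.07 (SE), with an interval of -0.21 to 0.08 and an adjusted p of 0.845 in limma, and it was 0.0061 with median centring. It was -0.013 without rat 18 and -0.025 without rat 8.

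Duox2 had its probe at chr3:108965206-108965265 and Duox1 at chr3:109032679-109033369 (rn3), neighbours on 1 chromosome. Duox2, the main dual oxidase of the gut, had values of -0.30, 0.23 and 0.46 at high calcium and -0.29, 0.09 and 0.46 at low calcium. Its lowest rats were rat 17 of the high and rats 5 and 11 of the low calcium group, and its range was nearly the same in both diets. The difference was 0.09 ± 0.11 (SE), with an interval of -0.13 to 0.32 and an adjusted p of 0.858 in limma. It was 0.045 without rat 5 and 0.16 without rat 17. With array weights, which lower the part of arrays that vary more, it was 0.23 with an unadjusted p of 0.038 and an adjusted p of 0.330.

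Duox1, the dual oxidase better known from airway and thyroid, was dim, with a median Cy5 signal of 149.5 over backgrounds of 38.0 to 55.0. Its values were -0.28, -0.04 and 0.11 at high calcium and -0.20, -0.01 and 0.08 at low calcium. The low calcium rats lay inside the range of the high calcium rats. The difference was -0.04 ± 0.05 (SE; adjusted p 0.864 in limma), and it turned sign under 4 settings, up to 0.10 with the Cy5 channel alone. Duox1 and Duox2 had an r of 0.00 over the 17 rats.

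Nos2, which makes nitric oxide in large amounts once induced, was read by 10 spots per array for a probe at chr10:65083834-65085873 (rn3). Its values were -0.43, 0.08 and 0.30 at high calcium and -0.40, 0.01 and 0.23 at low calcium. Rats 17 and 5, 1 of each diet, were the lowest, and rat 10 was the highest. The difference was 0.05 ± 0.09 (SE), with an interval of -0.14 to 0.24 and an adjusted p of 0.913 in limma; it was -0.0016 without rat 5. The spots of 1 array agreed closely, with a median SD of 0.063, against an SD of 0.22 over the high and 0.20 over the low calcium rats. The spread of Nos2 over rats, whose values each average the spots, was thus wider than its spread over single spots.

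Nos3, also read by 10 spots, at chr4:6159286-6159345 (rn3), was dim, with a median Cy5 signal of 108.0. It was well above background on 12 of 17 arrays, 5 of the 8 at high and 7 of the 9 at low calcium. Its values were -0.16, -0.03 and 0.10 at high calcium and -0.11, 0.00 and 0.10 at low calcium, a narrow range in both diets. The median SD over single spots was 0.10, and the SD over the rats of either diet was 0.08 and 0.06. Each rat value averages its spots, so these SDs are not on 1 footing and do not rank noise against rats. The difference was -0.06 ± 0.04 (SE; interval -0.15 to 0.03, adjusted p 0.747 in limma). With the scanner software's own processed signals it was -0.39, with an unadjusted p of 0.027 and an adjusted p of 0.404.

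The mean log2 ratio per rat of the 3 phagocyte subunits was set beside that of the 3 epithelial oxidases as a description, without a test. For the 8 high calcium rats the phagocyte mean was -0.13 ± 0.17 (SD), and for the 9 low calcium rats it was 0.12 ± 0.15 (SD). The epithelial mean was 0.07 ± 0.10 and 0.07 ± 0.12, and that of the nitric oxide synthases was -0.00 ± 0.13 and 0.00 ± 0.11. The phagocyte mean of the high calcium rats ran from -0.48 in rat 18 to 0.10 in rat 3, and that of the low calcium rats from -0.13 in rat 16 to 0.38 in rat 6. Over all alternative settings and rats left out the difference between diets of the phagocyte mean stayed between -0.31 and -0.19 and that of the epithelial mean between -0.03 and 0.05.

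The arrays came from 5 slides. Slide 5 carried rat 1 alone, and on each of the others were 2 high calcium and 2 low calcium rats. Within slides 1 to 4, Ncf1 differed by 0.07, -0.42, -0.50 and -0.79 between diets. Cybb differed by -0.06, -0.40, -0.26 and -0.47. Slide 1 thus gave differences near 0 for both, and slides 2, 3 and 4 gave negative ones. Duox2 differed by 0.33 on slides 1 and 2 and by -0.14 on slides 3 and 4, and Nos2 by 0.16, 0.35, -0.03 and -0.27. With slide as a block the difference was -0.41 for Ncf1 and -0.30 for Cybb (adjusted p 0.344 and 0.463 in limma).

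**Figure D3:**
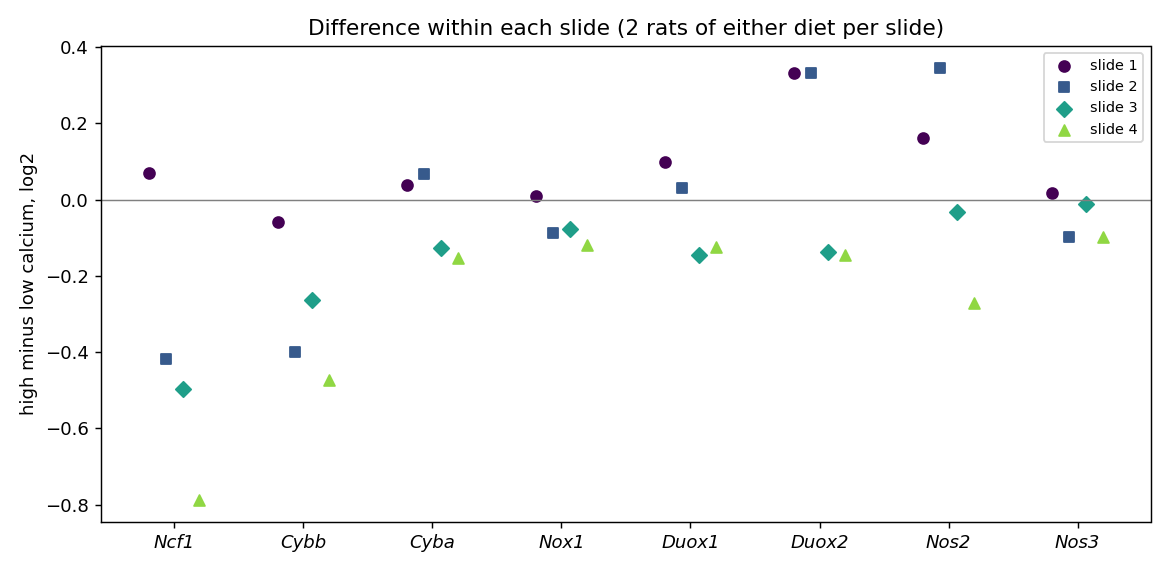
Difference between the mean of 2 high and 2 low calcium rats (log2, vertical axis) on each of slides 1 to 4, by marker, for the 8 members. Ncf1 lies between -0.79 and -0.42 on slides 2 to 4 and at 0.07 on slide 1, while Duox2 and Nos2 have slides on both sides of 0.

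Slide 1 holds high calcium rat 3 and low calcium rat 16. Rat 3 had the highest phagocyte mean of its diet and rat 16 the lowest of its own. Leaving both out was chosen because earlier results on these data had set them apart, and taking out these rats by itself widens the difference of the phagocyte mean. The calls made without them are therefore a description and support nothing about the diets. Without both, 329 probes (1.21%) passed an adjusted p of 0.05 in limma, 2 members among them: Ncf1 at -0.50 (adjusted p 0.0077) and Cybb at -0.39 (adjusted p 0.031). Without rat 3 alone 193 probes (0.713%) passed, and without rat 16 alone 38 (0.14%). No member passed in either case, and Ncf1 without rat 3 had an adjusted p of 0.0504 in limma. TC551872 passed without rat 3, at -0.51 (adjusted p 0.040), and without both rats, at -0.57 (adjusted p 0.0085).

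Over the 17 rats Ncf1 and Cybb varied together, with r = 0.86 and rho = 0.77, and r was 0.72 without the 2 rats farthest from the median of Cybb. After each diet's mean was taken out r was 0.77, so the relation was present within the diets. These points share the Cy3 pool and the normalisation, and no p is given for them. Nos2 followed Duox2, with r = 0.73 and rho = 0.53, but r was 0.45 without the 2 rats farthest from the median of Duox2. That relation rests in good part on rats 5 and 17, which were low for both genes. Cyba had an r of 0.59 with Duox2 and with Nos2, 0.43 with Ncf1 and 0.33 with Cybb. Nox1 and Duox2 had an r of -0.12.

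**Figure D4:**
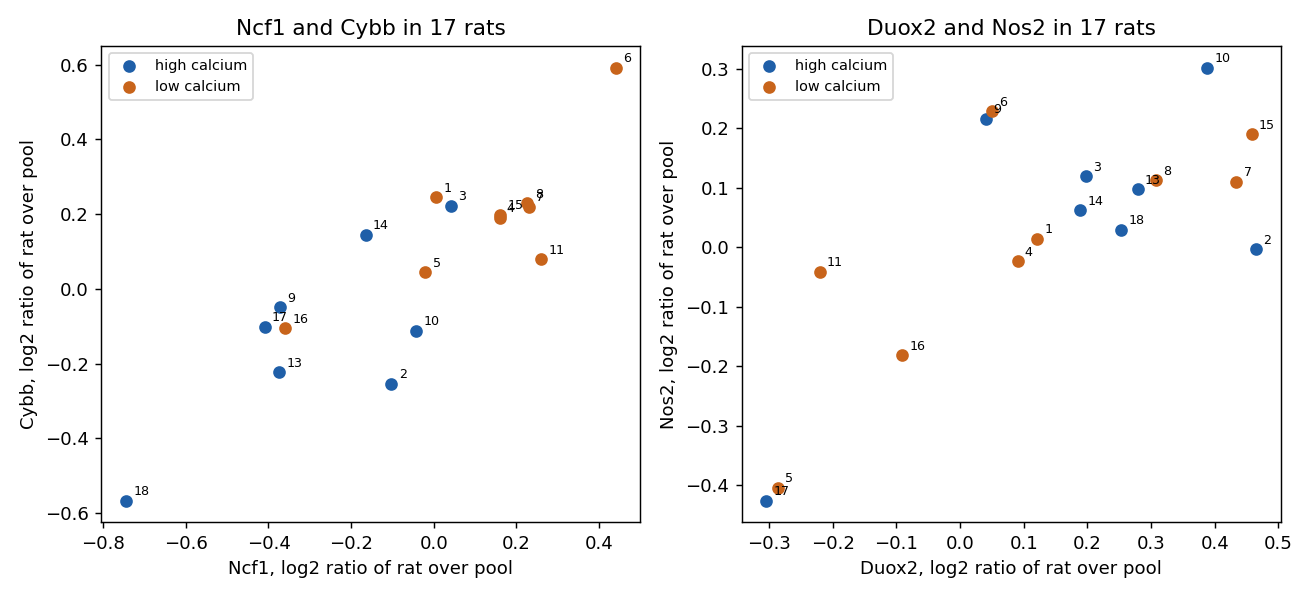
Log2 ratio to the pool of Ncf1 against Cybb (left) and of Duox2 against Nos2 (right), 1 point per rat with its number, high calcium in blue and low calcium in orange. Ncf1 and Cybb follow each other (r = 0.86), with rat 18 lowest and rat 6 highest, and rats 5 and 17 lie at the low end of the right panel.

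The genes whose brightest tested probe was most like each member over the 17 rats, of 12277 genes, were named by the highest r. The 99th percentile of r over these genes was 0.829 for Cybb, 0.815 for Ncf1, 0.772 for Duox2, 0.721 for Nos3 and 0.685 for Nos2. It was 0.640 for Duox1, 0.627 for Cyba and 0.608 for Nox1. A high r was thus less rare for Cybb and Ncf1 than for the other members. How many genes came near the r of those named was not counted. For Ncf1 the genes were Tcirg1 (0.951), Mfge8 (0.930) and Igsf6 (0.929). Tcirg1 is a proton pump subunit of lysosomes and osteoclasts, and Mfge8 bridges phagocytes and dying cells. For Cybb they were Eno2 (0.962), an enolase of glycolysis, Sulf1 (0.951), a sulfatase of heparan sulfate, and Fcgr2a (0.938), an Fc receptor of myeloid cells. Each of these 6 kept an r of at least 0.88 without the 2 rats farthest on the member, and the lowest under any setting was 0.871, for Tcirg1.

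For Duox2 the nearest were Muc13 (0.927), a membrane mucin of gut epithelium, Tor1aip2 (0.925) and Ell (0.917). For Nos2 they were Adm (0.879), the peptide adrenomedullin, Itgb6 (0.860), an epithelial integrin chain, and Nfkbia (0.848), the NF-κB inhibitor that NF-κB itself induces. With the Cy5 channel alone r of Nos2 and Nfkbia was 0.416, while Adm stayed at 0.838 or above and Itgb6 at 0.806 or above. For Nos3 they were Tmem255b (0.905), Tm4sf1 (0.891), a surface protein of endothelium, and Kcnj8 (0.889), a potassium channel of mural cells. With median centring these were 0.686, 0.157 and 0.446. Cyba was most like Foxo3 (0.848), Zc3h7a (0.796) and Plet1 (0.787). With the Cy5 channel alone these were 0.136, 0.631 and 0.388.

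Nox1 was most like Prkacb (0.797), Sdc2 (0.766) and Pde7a (0.749), but with r of 0.30 to 0.43 without the 2 rats farthest on Nox1. Duox1 was most like Epn2 (0.829), Barhl1 (0.814) and Anp32e (0.797). The likeness of this dim probe depended on the processing. For Epn2 r was 0.53 with median centring, 0.40 with the processed signals, 0.29 with the series matrix and -0.36 with the Cy5 channel alone. For Anp32e it was 0.22, 0.63, -0.11 and -0.38 in the same order.

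Some lists of cell type markers moved with some of the members over the rats. Each r runs over both diets, so a difference between diets that a list and a member share is part of it. Values within diets were not taken. The mean of the neutrophil markers had an r of 0.92 with Cybb and 0.88 with Ncf1, and that of the macrophage and monocyte markers 0.82 and 0.89. Without the 2 rats farthest on the member these were 0.87 and 0.81, and 0.78 and 0.86. The endothelium markers also followed both, with r of 0.73 for Cybb and 0.70 for Ncf1 (0.61 and 0.53 without the 2 rats). A high r was not particular to cell type lists, as lists of pathway genes given below show. For Cybb and Ncf1 r was 0.79 and 0.85 with nitric oxide synthesis and arginine use. It was 0.68 and 0.79 with superoxide and peroxide use, and 0.65 and 0.73 with the inducers. With the oxidase partners it was 0.43 and 0.74, and with the nitric oxide response -0.27 and 0.03. The colon epithelium markers had an r of -0.72 with Cybb and -0.65 with Ncf1, and of -0.37 and -0.32 without the 2 rats. The dim probe of Nos3 followed the endothelium markers (r = 0.86) and the smooth muscle markers (r = 0.82). It also had an r of 0.66 with the neutrophil markers and of -0.73 with the epithelium markers (-0.76 without the 2 rats). For Duox2 r was 0.42 with the epithelium markers, 0.12 with the neutrophil and 0.02 with the macrophage markers, and for Nos2 it was 0.03, 0.34 and 0.17. Nox1 had an r of -0.60 with the epithelium markers (-0.38 without the 2 rats).

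**Figure D5:**
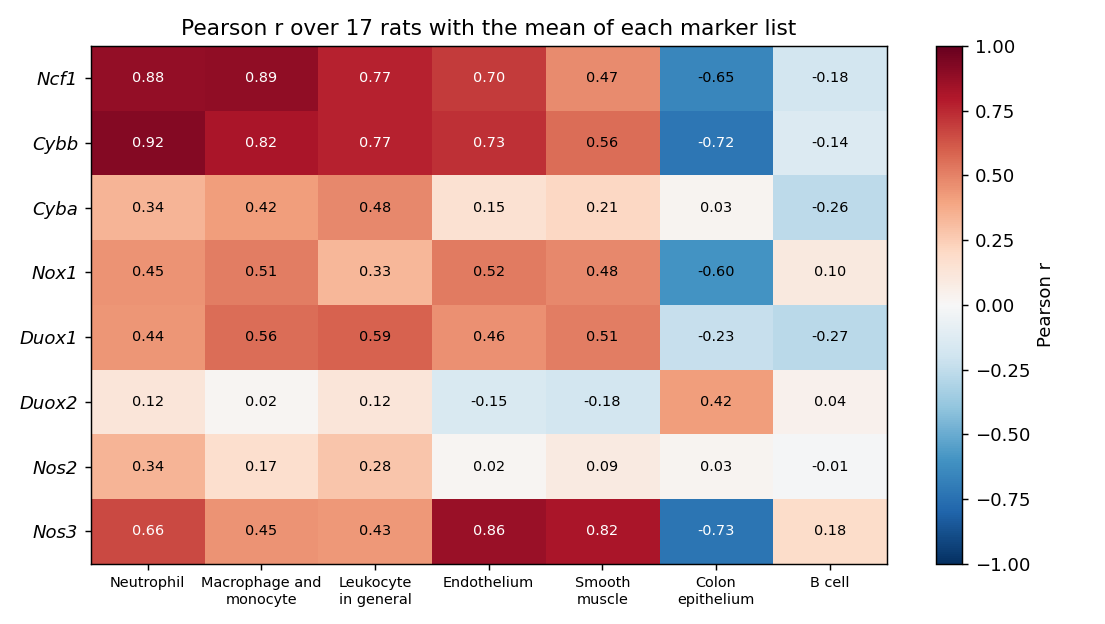
Pearson r over 17 rats between each member (rows) and the mean of each marker list (columns), as numbers and colour from -1 to 1. Ncf1 and Cybb have r of 0.82 to 0.92 with the neutrophil and macrophage lists, Nos3 has 0.86 with the endothelium list, and Duox2 and Nos2 stay under 0.35 with the neutrophil and macrophage lists.

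The marker lists are given by diet beside Ncf1 and Cybb, as counts without a test, and the rat means of the diets overlapped in each list. Over all 27083 probes 46.1% were lower at high calcium. At an unadjusted p under 0.05 in limma 4.84% of all probes were lower and 3.95% higher. Of 8 tested neutrophil markers 7 were lower at high calcium, 5 with an unadjusted p under 0.05, and the median difference was -0.26. The mean of these markers ran from -0.53 to 0.33 over the high and from -0.21 to 0.49 over the low calcium rats, with rat 3 the highest of the high calcium group and rat 16 the lowest of the low. The neutrophil genes Mpo, Fpr1 and Ltf were on the array but too dim to test. Of 12 tested macrophage and monocyte markers 11 were lower, 5 at that level, with a median of -0.13 and rat means of -0.58 to -0.02 and -0.14 to 0.29. Of 7 endothelium markers 6 were lower, 3 at that level, with a median of -0.14, and of 5 general leukocyte markers 5 were lower, 2 at that level, with a median of -0.08. Of 5 smooth muscle markers 3 were lower, 1 at that level, with a median of -0.09, and of 3 B cell markers 1 was lower, 0 at that level, with a median of 0.05. Of 13 epithelium markers 10 were higher, 1 at that level, with a median of 0.08. No list member passed an adjusted p of 0.05 in limma. The part of these cell types in the differences of Ncf1 and Cybb was not tested, and in scraped tissue fewer cells of a type and less RNA per cell cannot be told apart.

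Other genes of the pathway were taken from lists by role. Their counts stand beside 46.1% of all probes lower, and 4.84% lower at an unadjusted p under 0.05 in limma. Of 14 oxidase partners, 11 were tested, 9 lower and 2 higher, 0 at an unadjusted p under 0.05, with a median of -0.07. The smallest p belonged to Rap1a (-0.09 ± 0.05, SE), a small GTPase found with the oxidase core, Rac2 (-0.09 ± 0.06), the GTPase that activates the phagocyte oxidase, and Arhgdib (-0.09 ± 0.06), which holds Rac in the cytosol. Noxo1 and Noxa1, the organiser and activator of Nox1, differed by 0.00 and -0.02, and Duoxa1, which matures Duox1, by -0.05. Nox3 and Nox4 were too dim to test.

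Genes of nitric oxide synthesis and arginine use were 16 of 18 tested, 13 lower and 3 higher, with a median of -0.05 and 3 lower at an unadjusted p under 0.05. Arg1, the arginase that uses the same substrate as the synthases, differed by -1.20 ± 0.33 (SE; adjusted p 0.210 in limma). It was -1.41 without rat 3 (adjusted p 0.031) and -1.60 without rats 3 and 16 (adjusted p 0.0042). Those omissions were chosen from these data, and the call over all 17 rats did not pass. Ass1, which regenerates arginine from citrulline, differed by -0.43 ± 0.15 (adjusted p 0.369 in limma) and by -0.59 without rats 3 and 16 (adjusted p 0.024). Gchfr, the feedback regulator of synthesis of the cofactor tetrahydrobiopterin, differed by -0.19 ± 0.07. Of the nitric oxide response genes 2 of 5 were tested, Pde5a (0.10 ± 0.10), which breaks down cyclic GMP, and Gucy1a1 (-0.00 ± 0.12), a subunit of the nitric oxide receptor whose sign turned under many settings.

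Of the genes that use or remove superoxide and peroxide 10 of 13 were tested, 8 of them lower, 4 at an unadjusted p under 0.05, with a median of -0.11. Those with the smallest p were Prdx1 (-0.13 ± 0.05, SE) and Prdx5 (-0.21 ± 0.09), peroxiredoxins that reduce peroxides, and Sod2 (-0.27 ± 0.10), the mitochondrial superoxide dismutase. Of the inducers 9 of 10 were tested, 7 lower, 2 at that level, with a median of -0.05. The cytokines Il1b (-0.25 ± 0.11), Il17a (-0.32 ± 0.15) and Ifng (-0.15 ± 0.12) had the smallest p. None of these genes passed an adjusted p of 0.05 in limma over all 17 rats.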

How the data were processed

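Colon mucosa RNA of 17 rats was measured on 2-colour arrays, rat in Cy5 and the pool in Cy3, with no dye swap: both diets share any dye effect. The deposited scanner files hold spot intensities of both dyes. Per the file headers, Agilent Feature Extraction wrote them in version 9.5.1.1, and version 9.5 stands in the submitters' processing notes. A deposited series matrix gives log2 values of 28213 features among 45018. The steps by which the authors made it are not given in the sources used here. After centring, it followed the uncorrected Cy5 to Cy3 log ratio (r = 0.98) and had array medians of 8.76. Its offset is unknown, it was used as an alternative, and 0 of its columns were unused.

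Background correction was by normexp (offset 50), and arrays were normalised by loess with control and outlier-flagged spots at weight 0 (limma 3.58.1, R 4.3.3). Flagged spots were set to missing and spots of a probe averaged, 43379 spots giving 41012 probes. A probe was tested if its Cy5 signal was well above background on 8 arrays or more. Diets were compared with lmFit and eBayes, two-sided, Benjamini-Hochberg adjusted over 27083 probes, threshold 0.05, tested on simulated data. Normalising each array to its centre hides a change shared by most genes.

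Groups came from the sample titles, which give each rat a number, and p-values measure the spread between these rats. The GRCr8 RefSeq table renewed array names by accession (10735 probes), gene ID (1222), symbol (5572) or synonym (3730), and 19753 were kept. Genes other than members were taken by their brightest probe. Probe positions are those of the array files (rn3). The members, the gene lists, the tests and the alternatives were chosen with earlier results of these data known. Named genes are all members, the 3 with the smallest unadjusted p in each pathway list, and the 3 with the highest r for each member. Other genes were named after their values were seen: Noxo1, Noxa1 and Duoxa1 for their role, and genes too dim to test. Alternatives covered background correction, normalisation, channel, filter, variance model, array weights, slide, and leaving out each rat.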

Additional observations from a re-analysis of the deposited data

Results flagged for a closer look

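Of 26 groups of rats examined (the members, the 2 probes under other names and the means by role, in each diet), 4 held 1 rat whose gap to the nearest other rat was a large share of the group's range. Chance gives about 1 such group in 20 if groups are independent and values normally spread. These groups share rats and genes, so the count of 4 cannot be set against that rate. Nos2 in high calcium rat 17 was -0.43 (-0.4255), with the next rat at -0.0032, a gap of 0.581 of the range. The mean of Nos2 and Nos3 was -0.29 (-0.2926) in the same rat, with the next at -0.0554. Cybb in low calcium rat 6 was 0.59 (0.5923), with the next rat at 0.246. Nox1 in high calcium rat 18 was -0.26 (-0.2557), with the next rat at 0.075, a gap of 0.659 of the range. In rat 18 Ncf1 and Cybb were also the lowest of all 17 rats.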

How the results depend on the processing

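Ncf1 and Cybb were lower at high calcium under every alternative run, from -0.50 to -0.32 and from -0.46 to -0.24. With median centring in place of loess their unadjusted p was 0.258 and 0.195, the median of all probes moved to 0.041, and 0 members and 779 probes had an unadjusted p under 0.05. With array weights 3787 probes did. Leaving out 1 rat at a time gave 0 to 193 probes past the threshold (38 without rat 16), and 329 without rats 3 and 16, with 2 members. Duox1 turned to 0.0065 with no background correction, 0.022 with the scanner software's processed signals, 0.10 with the Cy5 channel alone and 0.099 with the series matrix. Median centring turned Nox1 (0.0061) and Cyba (0.025), and Cyba also turned with Cy5 alone (0.018) and array weights (0.011). Nos2 ran from -0.0016 (without rat 5) to 0.12 over the rats left out. Gucy1a1 turned to 0.0055 (normexp with an offset of 0), 0.045 (median centring), 0.050 (Cy5 alone), 0.016 (series matrix), 0.022 (slide as a block) and 0.0082 (without rats 3 and 16), and ran from -0.079 to 0.061 over the rats left out. The cause was not tested. No paired analysis was possible because the diets share no replicate numbers. The mean over a gene's probes gave no separate value, since each member has 1 probe. The mean of Cybb with TC551872 and the phagocyte mean with LOC500904 (-0.23) were added after the data were seen. Signal over background limits Nos3 and Duox1.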
